A study of Caenorhabditis elegans with 12 samples.

Results

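The center of chromosome II, from 4.88 to 12.02 Mb in genome build ce10, held 224 MRG-1 sites that were called in every one of 6 ChIP-seq peak lists and were narrower than 8000 bp. A site is the union of all peaks of the 6 lists that overlap by at least 1 bp. The 224 sites, numbered here II-1 to II-224 along the chromosome, were 224 of 8226 sites genome-wide. Of those 8226 sites, 3578 (43.5%) were called in all 6 lists. They were chosen by their calls, their width and their position, so those values are given below as a description with no test. The width of a site is made of the bases called in the 6 lists, so the number of bases called is also given without a test. The height of a peak within its list was not used to choose the sites, apart from the requirement of a call in all 6 lists. The width limit bears on it indirectly, since wider sites stood higher.

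Chromatin of whole worms was precipitated with an antibody against MRG-1 in 2 *Caenorhabditis elegans* strains, with 3 replicates each: N2, the wild-type laboratory strain, and SS104, which carries the glp-4(bn2) allele. Both strains were kept at 15 °C on OP50 bacteria, synchronized by bleaching, grown at 25 °C from the L1 larva and collected when most animals had reached the L4 stage, the last larval stage, so the 2 groups shared food, temperature and stage and differed in genotype. The labels do not say that the replicates were separate cultures, and p-values here measure only the spread between these samples. The 6 inputs were left out and are not analysed here.

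MRG-1 is the worm ortholog of mammalian MRG15, a chromodomain protein that in other species binds histone H3 methylated at lysine 36, a mark found over the bodies of transcribed genes, and that belongs to histone acetyltransferase and deacetylase complexes. In *C. elegans* it is known for its role in the germline. Worm autosomes have a central region of low meiotic recombination flanked by recombining arms, and conserved, essential and broadly expressed genes are concentrated in the centers. glp-4 encodes a valyl-tRNA synthetase, and glp-4(bn2) worms grown at the restrictive temperature make few germ cells, so the strain is used as one that largely lacks a germline. How many germ cells each sample held could not be checked from peak lists. In whole animals, fewer cells of a type and less signal per cell cannot be told apart.

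The 6 lists held between 7073 and 7737 peaks and the N2 lists covered 15.4 to 17.6 Mb, the glp-4(bn2) lists 13.6 to 15.7 Mb. Peaks on X made up 6.51 to 7.45% of the N2 lists and 10.3 to 10.9% of the glp-4(bn2) lists. Read totals are not in the lists, and the background level recovered from the p-values of the peaks was 77.2 to 96.8 reads per base for N2 samples and 60.6 to 68.9 for glp-4(bn2) samples. At that background the lowest fold enrichment that could be called was 1.25 to 1.28 for N2 and 1.30 to 1.32 for glp-4(bn2).

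The center of chromosome II contained 557 sites of any kind. Of these, 310 were called in all 6 lists, and 86 of the 310 were 8000 bp or wider and so were not among the 224. Another 69 had calls from 2 or 3 N2 lists alone, 42 from 2 or 3 glp-4(bn2) lists alone, 81 from a single sample and 55 from other mixtures of both strains. The 224 sites covered 11.9% of the center, the wide sites 15.2% and sites of any kind 30.4%.

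The 224 sites amounted to 31.4 sites per Mb and were denser on the right side of the center. Successive windows of 1 Mb from the left border held 21, 22, 32, 26, 34, 45 and 37 sites, and the last 0.14 Mb held 7. The left side of the center held 86 sites and the right side 138. With the same rule, the center of chromosome III (3.7 to 10 Mb) held 224 sites at 35.6 per Mb, and that of chromosome V (5.9 to 16 Mb) held 217 at 21.5 per Mb. The limits used for III and V are approximate borders of their central regions and were not read from the files. The density on chromosome II lay between those of the 2 other centers, also with the borders of III and V moved by 0.5 Mb, where III held 34.2 to 38.5 and V 21.3 to 22.1 sites per Mb.

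**Figure D1:**
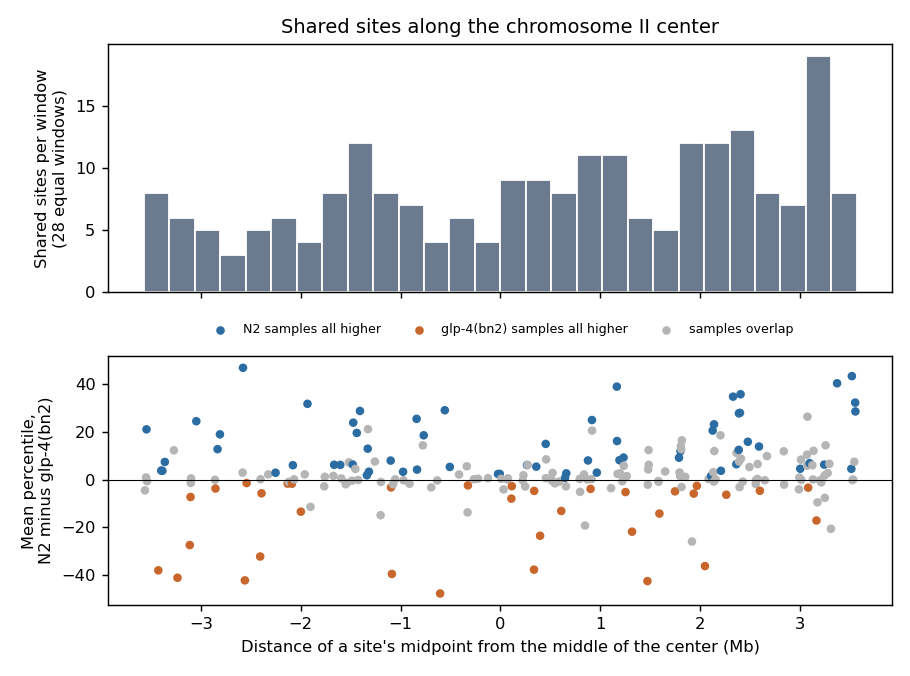
The 224 sites of the chromosome II center along the chromosome (distance of each midpoint from the middle of the center, in Mb). The upper panel counts sites in equal windows and the lower panel plots, for each site, the N2 mean minus the glp-4(bn2) mean of its within-list fold percentile, blue where all N2 samples are higher (63 sites), orange where all glp-4(bn2) samples are higher (35) and gray where they overlap (126). The right side holds 138 sites and the left side 86, and sites above and below 0 occur along the whole center.

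Counted in 72 windows of 100 kb, the median window held 3 sites. Of the windows, 5 held none, 12 held 1 and 15 held 5 or more, and the fullest, from 10.8 to 10.9 Mb, held 11, named II-170 to II-180. The longest stretch without one of the 224 sites ran for 224255 bp between site II-19 (chrII:5640084-5642941) and site II-20 (chrII:5867197-5870917). This stretch was not free of MRG-1. It held 12 other sites, 6 of them called in all 6 lists but 8000 bp or wider, the widest spanning 20283 bp, and 38.0% of its bases lay in a site. The longest stretch of the center with no site of any kind was 89208 bp long, at chrII:5954695-6043902.

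Gaps between neighboring members of the 224 fell mostly below 1 kb or above 10 kb. These gaps pass over sites of other kinds, and only 106 of the 223 pairs had no other site between them. The median gap from the edge of one site to the edge of the next was 11723 bp, but 59 of the 223 gaps, or 26.5%, were shorter than 1 kb, with a median of 245 bp, and 119, or 53.4%, were longer than 10 kb, with a median of 36477 bp. Only 45 gaps lay between, and 13 of these were 1 to 3 kb long. Between sites of any kind in the center the median gap was 1659.5 bp. When sites less than 1 kb apart are joined, the 224 sites form 165 runs, of which 124 are single sites, 30 are pairs and 11 hold 3 sites or more. The longest run joined 8 sites, II-146 to II-153, over 31.0 kb at chrII:10237475-10268468. Sites of every kind counted, 158 of the 224 lay within 1 kb of another site, 28 within 1 kb of a wide site, and 17 lay more than 10 kb from any other site.

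**Figure D2:**
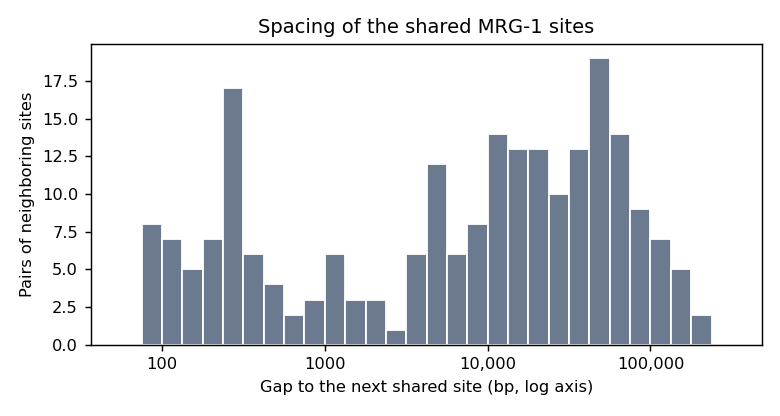
Gaps between neighboring sites among the 224 of the chromosome II center, passing over other sites (edge to edge, in bp on a log axis) as a histogram of counts. The 59 gaps below 1 kb and the 119 above 10 kb lie on either side of a sparse range, with 13 gaps of 1 to 3 kb.

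Site widths ranged from 924 bp at site II-191 (chrII:11288262-11289185) to 7914 bp at site II-208 (chrII:11647984-11655897). The median was 3357 bp and the middle 50% of the sites ran from 2126 to 5267 bp. The medians on III and V were similar, at 3746 and 3533 bp, whereas sites of the chromosome II arms that met the same call and width rule had a median of 1952 bp. The second widest site was II-47 (chrII:6960754-6968558, 7805 bp) and the second narrowest II-173 (chrII:10836910-10837849, 940 bp). The narrowest site of all 6 lists that the width rule left out measured 8080 bp (chrII:11591965-11600044). At the left border the first site inside was II-1 (chrII:4888823-4891846, midpoint 4.8903 Mb) and the last outside had its midpoint at 4.8583 Mb. At the right border the midpoints just inside and just outside were 12.006 and 12.024 Mb.

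Most sites were called as a single peak. A site held on average 1.304, 1.107 and 1.299 peaks in N2 replicates 1 to 3 and 1.326, 1.228 and 1.357 in glp-4(bn2) replicates 1 to 3. The strains overlapped (difference −0.0670 peaks, exact two-sided permutation test p = 0.5). In 112 sites, or 50%, every list had 1 peak. A single peak in all N2 lists and several in all glp-4(bn2) lists was seen at 5 sites, the opposite at 0, and 3 sites were split in all 6 lists. The most divided was site II-120 (chrII:9359793-9366205), with 3, 1 and 4 peaks in N2 and 6, 4 and 4 in glp-4(bn2).

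Because a fold value is comparable only within its own list, each peak was given the percentile of its fold among all peaks of that list, and each site the highest percentile of its peaks in a list. By this measure the sites of the chromosome II center lay well above the middle of each list. Their median percentile was 77.4, 78.6 and 77.2 in N2 and 74.3, 74.2 and 75.0 in glp-4(bn2). The full range ran from 1.10 to 99.8 over the 6 lists. At the top, 31 sites were at the 90th percentile or above in all 6 lists. At the bottom, 8 were below the 50th in all 6. Since the rule asked for a call in all 6 lists, these levels are a description.

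The 5 sites with the highest value in their weakest list were strong in both strains. Site II-221 (chrII:11980213-11985448) was at percentiles 99.8, 99.6 and 99.7 in N2 and 99.4, 99.8 and 99.7 in glp-4(bn2). Site II-33 (chrII:6383204-6385627) was at 99.3, 99.6 and 99.7 in N2 and 98.9, 99.5 and 99.7 in glp-4(bn2), over only 2424 bp. The other 3 were II-141 (chrII:10029997-10033853), II-110 (chrII:9094355-9101604) and II-82 (chrII:8181828-8188156), whose lowest percentile in any list was 98.3. At II-221, II-141 and II-82 the highest points of all 6 lists lay within 32, 20 and 69 bp of each other. At II-110 and II-33 they lay within 104 and 234 bp.

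Wider sites stood higher. Ordered by width into 4 groups of 56, the mean percentile in N2 replicate 1 was 51.8, 70.5, 80.4 and 87.9 from the narrowest to the widest group, and in glp-4(bn2) replicate 1 it was 45.0, 68.2, 76.3 and 86.7. The 4 other lists showed the same order. Over the 224 sites, width and mean percentile had a Pearson r of 0.647 and a Spearman rho of 0.666, given as a description, since the sites come from the same 6 libraries and a peak with more reads is called over more bases. Width was nearly unrelated to the signed difference between strains, N2 minus glp-4(bn2) (r = −0.0515, rho = −0.121). Differences of opposite direction offset each other in these values, which therefore do not describe the size of the difference. Sites with strain means more than 20 points apart had median widths of 2023 bp (higher in N2) and 1952 bp (higher in glp-4(bn2)). The median width over the 224 sites was 3357 bp.

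The percentiles of the sites were somewhat closer within a strain than between strains. Between lists of the same strain Pearson r was 0.870 to 0.938 and Spearman rho 0.929 to 0.969, and between lists of different strains they were 0.642 to 0.782 and 0.842 to 0.896, over the same 224 sites in each pair and as a description. The median range of a site over the 3 lists of a strain was 5.89 percentile points in N2 and 4.79 in glp-4(bn2), against 11.8 over all 6 lists.

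Averaged over the 224 sites, the percentile was 72.65, 73.29 and 71.47 in N2 and 69.07, 70.46 and 69.77 in glp-4(bn2). Every N2 value lay above every glp-4(bn2) value. The means were 72.5 ± 0.923 in N2 and 69.8 ± 0.697 in glp-4(bn2) (SD, n = 3 each), a difference of 2.70 percentile points (exact two-sided permutation test, p = 0.1, the smallest that 3 against 3 samples allow). The median difference of a site was 1.56 points over the 224 sites and 1.55 over all 3578 sites of all 6 lists. Tests of the strain difference against those of the 2 other centers did not pass 0.05, which 3 against 3 samples cannot do. It exceeded that of the chromosome III center by 0.153 points (exact permutation test, p = 0.8) and that of the chromosome V center by 0.584 points (p = 0.1), and the sign of both turned when some libraries were left out (the first without N2 replicate 2, at −2.54, N2 replicate 3, at −0.116, glp-4(bn2) replicate 1, at −0.247, or glp-4(bn2) replicate 2, at −0.730, and the second without glp-4(bn2) replicate 1, at −0.286).

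**Figure D3:**
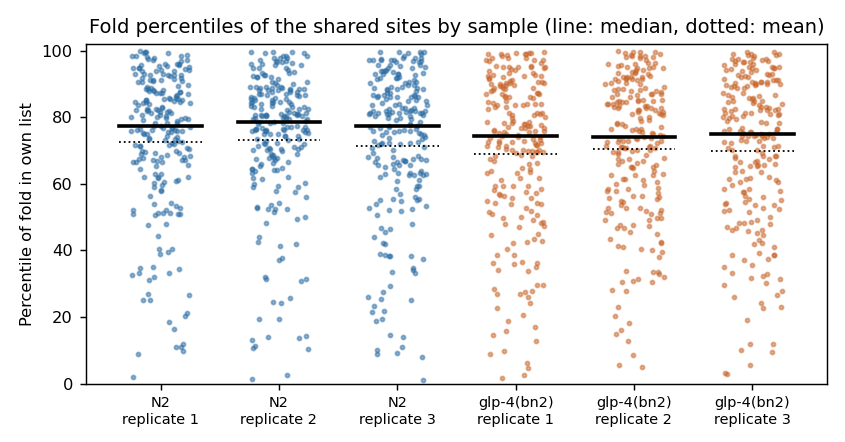
Within-list fold percentile of the 224 sites of the chromosome II center in each of the 6 lists, with 1 point per site, a solid line at the median and a dotted line at the mean (N2 in blue, glp-4(bn2) in orange). The means of the 3 N2 lists lie between 71.47 and 73.29 and those of the 3 glp-4(bn2) lists between 69.07 and 70.46, while single sites reach from 1.10 to 99.8.

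Set against other regions in the same samples, the chromosome II center took a middle place among sites under the width limit. Its mean percentile was above that of the chromosome III center in 6 of 6 samples, by 1.63 ± 0.746 points (SD, n = 6). It was below that of the chromosome V center in 6 of 6 samples, with a difference of −2.82 ± 0.480 points, and above that of the chromosome II arms in 6 of 6 samples, by 10.1 ± 2.45 points. Each of these 3 comparisons had an exact paired permutation p of 0.0312 and an adjusted p of 0.0312 (Benjamini-Hochberg), the smallest that 6 pairs allow. The values depended on the width rule, and wider sites stood higher in the chromosome II center. The limit left out unequal numbers of sites called in all 6 lists. These were 86 in the chromosome II center, 103 in that of III, 50 in that of V and 23 in the arms. With no limit on width the differences from III, V and the arms were 0.588, −0.196 and 12.8, and with sites of at least 2000 bp, an alternative chosen after seeing the data, they were 2.90, −0.277 and 2.77, with adjusted exact p between 0.0938 and 0.281. The difference of 12.8 from the arms and that of 2.90 from III kept an unadjusted exact p of 0.0312. Against III, windows of 250 bp around the summits gave −0.0548 (adjusted exact p = 0.938), and moving the borders of III outward by 0.5 Mb gave 3.47.

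At single sites the strains differed in both directions. At 63 of the 224 sites (28.1%) every N2 percentile lay above every glp-4(bn2) percentile, against 25.6% of all sites of all 6 lists. The opposite was found at 35 sites (15.6%), against 15.5%. Both shares were close to those over all 3578 sites. At the remaining 126 sites the strains overlapped, and at 113 sites (50.4%) the strain means lay within 5 points. Means more than 20 points apart were found at 37 sites, 23 of them higher in N2 and 14 higher in glp-4(bn2). These 37 were narrow, with median widths of 2023 and 1952 bp. The 23 higher in N2 stood at a mean percentile of 35.8 in glp-4(bn2), and the 14 higher in glp-4(bn2) at 29.2 in N2. Such low values go with the choice of sites by a large difference. The share of differences this large among all 3578 sites was not counted, so the 37 cannot be read as more or fewer than elsewhere.

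Site II-21 (chrII:5871016-5873879) had the largest difference toward N2. Its percentiles were 73.5, 76.0 and 72.4 in N2 and 26.0, 8.76 and 46.3 in glp-4(bn2), a difference of 46.9 points between the means. The highest points of the 6 lists nevertheless lay within 103 bp. N2 lists called 2638, 2730 and 2456 bases of it and glp-4(bn2) lists 318, 748 and 461. The next were II-219 (chrII:11968165-11972753), at 75.7, 79.8 and 72.4 in N2 and 29.5, 45.6 and 22.6 in glp-4(bn2), and II-217 (chrII:11821117-11823863), at 52.1, 71.4 and 58.4 against 17.1, 38.0 and 5.7. None of these 3 sites was strong in N2, where all values lay below the 80th percentile.

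In the other direction, site II-75 (chrII:7844493-7848864) was at 48.1, 10.6 and 18.8 in N2 and 72.4, 74.3 and 73.9 in glp-4(bn2), a difference of −47.7 points. It was called as 1 peak in each N2 list, over 1131, 1828 and 1319 bases, and as 3, 2 and 3 peaks in glp-4(bn2), over 3637, 3624 and 3343 bases. Site II-136 (chrII:9922258-9923971) was at 11.0, 13.0 and 8.1 in N2 and 43.0, 55.9 and 60.5 in glp-4(bn2). Site II-22 (chrII:5890362-5892328) was at 26.9, 32.1 and 25.1 in N2 and 69.5, 70.9 and 70.3 in glp-4(bn2). The glp-4(bn2) values of II-75 and II-22 lay closer together than the N2 values of II-21. The percentile scale is steeper at low folds. In N2 replicate 1, folds of 1.56 (II-136) and 2.26 (II-75) lay at percentiles 11.0 and 48.1. Folds of 6.96 (II-57) and 10.6 (II-110) lay at 91.0 and 99.5 in the same list. The same number of points therefore stands for a smaller change of fold at weak sites.

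Sites with opposite differences could be neighbors. Site II-20 was at 75.0, 74.4 and 67.6 in N2 and 69.8, 69.9 and 68.5 in glp-4(bn2), so that the strains overlapped. Only 98 bp further along began site II-21, with the largest difference toward N2, and 16482 bp after its end began site II-22, with one of the 3 largest toward glp-4(bn2). The stretch chrII:5867197-5892328 therefore held a balanced site and sites of both directions. Over the 59 pairs of neighbors less than 1 kb apart, the strain differences had a Pearson r of 0.287, and over the 119 pairs more than 10 kb apart −0.105. These pairs come from the same 6 libraries and share sites with each other, so the values are a description.

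The 11 sites in the fullest window of 100 kb are neighbors, so their values are a description of this window. The median difference over all 224 sites was toward N2, at 1.56 points. Of sites II-170 to II-180, II-170 (chrII:10778404-10783581) had percentiles of 77.0, 75.3 and 81.2 in N2 and 51.1, 47.7 and 30.2 in glp-4(bn2). Site II-178 (chrII:10855196-10856451) had 38.9, 56.1 and 50.8 in N2 and 4.8, 30.4 and 3.3 in glp-4(bn2). Site II-176 (chrII:10843381-10847917) overlapped between strains, at 58.0, 72.9 and 55.1 in N2 and 66.3, 67.5 and 61.6 in glp-4(bn2). The N2 mean was below the glp-4(bn2) mean there, by 3.1 points, and at II-180, by 0.8. No site of this window reached the 90th percentile in any list.

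N2 lists called more bases inside the sites. The bases called were 0.7630, 0.7999 and 0.7419 Mb in N2 and 0.6488, 0.6967 and 0.6424 Mb in glp-4(bn2), with no overlap between strains. The means were 0.768 ± 0.0294 and 0.663 ± 0.0297 Mb (SD, n = 3 each), a difference of 0.106 Mb. The limit of 8000 bp bears on this value, since N2 lists called 87.1 to 93.9% of the merged width and glp-4(bn2) lists 75.4 to 81.8%, and with no limit the difference was 0.205 Mb. Over all 3578 sites of all 6 lists the same comparison gave 14.7 and 13.2 Mb. The share of a list's called bases that lay in the 224 sites was 4.70% in N2 and 4.58% in glp-4(bn2), a difference of 0.124 percentage points with overlapping strains. The recovered background level was also higher in N2, by 21.5 reads per base (exact permutation test, p = 0.1). In glp-4(bn2), replicate 2 had the lowest level, 60.6, and the most bases. In N2, replicate 3 had the lowest level, 77.2, and the fewest bases. N2 replicate 1 had the highest level, 96.8, and N2 replicate 2, at 88.9, the most bases. The part of the background level in the result was not tested.

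**Figure D4:**
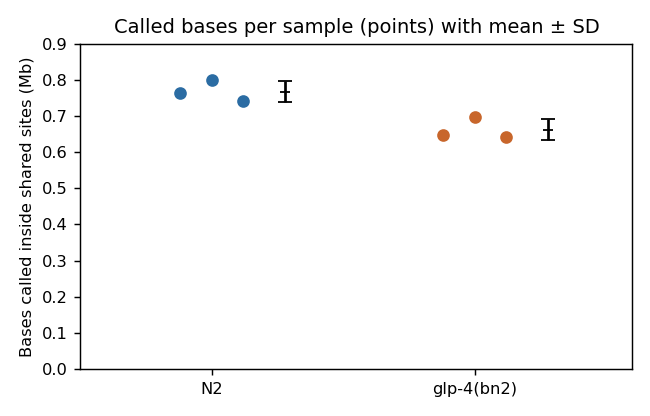
Bases called inside the 224 sites of the chromosome II center (Mb, axis from 0), with 1 point per sample and the mean ± SD beside each strain (n = 3). The 3 N2 lists called between 0.7419 and 0.7999 Mb and the 3 glp-4(bn2) lists between 0.6424 and 0.6967 Mb.

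Most of the strain-specific bases lay outside the outermost calls of the other strain, here called edges. Where the calls of the other strain formed a single continuous stretch, such bases could lie only at an edge. The shares at edges are therefore a description. All 6 lists called 567 kb in common, or 66.6% of the total width of the 224 sites. Bases called in at least 2 N2 lists and no glp-4(bn2) list came to 86.6 kb, or 10.2% of the width, with 88.1% of them at an edge and with a stretch of at least 150 bp at 103 sites. The reverse came to 11.1 kb, or 1.30% of the width, with 83.3% at an edge and such stretches at 20 sites. The shares were similar in the other centers, with 11.5% and 1.51% of the width in the chromosome III center and 8.95% and 2.01% in that of chromosome V. In the chromosome II arms they were 6.54% and 1.99%. N2-only stretches of at least 150 bp were found at 111 of 224 sites on III, 105 of 217 on V and 49 of 258 in the arms. For glp-4(bn2)-only stretches the numbers were 22, 20 and 23. Site II-57 (chrII:7129873-7137107) had the most N2-only bases, 4048, followed by II-31 (chrII:6359599-6365517) with 3016 and II-219 with 2621. At II-57 the percentiles nevertheless differed little, at 91.0, 89.7 and 86.8 in N2 and 86.1, 84.8 and 86.6 in glp-4(bn2), and the highest points lay within 80 bp. The most glp-4(bn2)-only bases, 1889, were in II-75, followed by 581 in II-63 (chrII:7362733-7364194) and 521 in II-59 (chrII:7250062-7251624). At II-59 and a few other sites no base was called in all 6 lists. A peak that overlaps 2 others joins them into a site even where those 2 share no base.

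The position of the highest point was alike in both strains at many sites. The median distance between the highest points of 2 lists was 59 to 106 bp within a strain and 83 to 124.5 bp between strains. All 6 points lay within 150 bp at 52 sites (23.2%), the median spread over 6 lists was 368.5 bp, and the spread exceeded 1 kb at 47 sites. In each list, 62.9 to 68.8% of the highest points fell in the middle 50% of the site.

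The difference between strains varied with the distance to the nearest site of any kind, a pattern noticed after the values were seen and given as a description. The neighbors include sites called in only one strain, so strain differences enter the distance itself. The 158 sites less than 1 kb from another site had mean percentiles of 72.7, 74.1 and 71.2 in N2 and 66.9, 68.6 and 68.1 in glp-4(bn2). The 66 sites farther away had 72.4, 71.3 and 72.1 in N2 and 74.2, 74.9 and 73.9 in glp-4(bn2). In both sets the strains did not overlap, and the direction was opposite. The strain difference was 4.81 points in the first set and −2.35 in the second, and these differed by 7.16 points. When only sites called in all 6 lists counted as neighbors, the 124 nearer sites had a strain difference of 5.35 points and the 100 others one of −0.590, with overlapping strains in the second set. Among the 17 sites more than 10 kb from any other, the N2 mean was 72.9 and the glp-4(bn2) mean 79.7. At sites 1 kb or more from any other, the strain difference was −2.31 points in the chromosome III center, with no overlap. It was −0.337 in the chromosome V center and −0.436 in the chromosome II arms, with overlapping strains in both. More than 10 kb from any other site it was −2.77 in III, 0.532 in V and −8.81 in the arms. The contrast between nearer and farther sites was 6.48 points in the chromosome III center, 4.33 in the chromosome V center and 7.20 in the chromosome II arms. With windows of 250 bp around the summits in place of whole peaks it was 1.43 points in the chromosome II center.

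**Figure D5:**
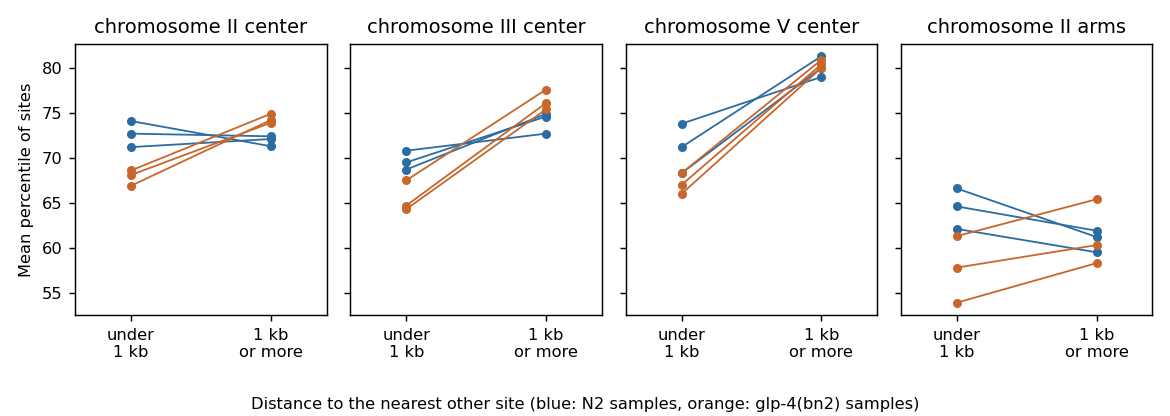
Mean within-list fold percentile of sites less than 1 kb and 1 kb or more from the nearest other site, in the centers of chromosomes II, III and V and the arms of chromosome II, with 1 line per sample (N2 in blue, glp-4(bn2) in orange, axis not from 0). In the chromosome II center N2 lies above glp-4(bn2) among the 158 sites less than 1 kb from another site and below it among the 66 sites 1 kb or more away.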

How the data were processed

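The deposited files were 6 narrowPeak lists, 1 per MRG-1 sample. The labels name bcl2fastq 2.18.0.12, Bowtie2 2.3.2, MACS2 2.1.0 and bedtools 2.25.0 and build ce10. Peaks were called per sample by the authors at q of 0.05, and the control used is not given in the sources used here. In each deposited list, column 7 is the fold enrichment at the summit (a ratio), columns 8 and 9 are −log10 p-values and q-values, column 5 is a score and column 10 the offset of the summit.

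From these, peaks were merged (overlap of at least 1 bp) and sites filtered by calls, width under 8000 bp and midpoint. Coordinates are 1-based. A percentile is the rank of a peak's fold within its own list. Samples were compared by exact permutation tests (3 against 3, or sign flips over 6 pairs) in Python 3.11.15 with numpy 2.4.6, pandas 2.3.3 and scipy 1.17.1. The background level is the Poisson mean at which the listed p-values match whole read counts, which held for 73.4 to 80.3% of those tried. The scripts were tested on simulated data, where 250 of 250 simulated members were recovered. The simulated sites lay far apart, each with a single peak in a list. The merging of close or divided sites was therefore not tried.

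Sites were named by rule: the 5 with the highest lowest percentile, the 3 with the largest difference in each direction, the 2 widest and 2 narrowest, those beside the longest gap, those of the fullest 100 kb, those nearest each limit, the 3 with most bases of 1 strain only, and the most divided. The limits of the chromosome III and V centers are approximate. The sites, the regions and the naming rule were chosen with earlier results of these data known. Alternatives were a stricter q, an overlap of 150 bp, equal numbers of top peaks, windows around summits, no limit on width, other borders, other percentiles, the replicate block and leaving out each replicate, and, added after seeing the data, sites of at least 2000 bp, moved borders of III and V and distances to sites of all 6 lists. Neither a genome nor an annotation of ce10 was used, so sites are given without genes or sequences.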

Additional observations from a re-analysis of the deposited data

How the results depend on the processing

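Of 150 alternatives that kept all samples, 135 left the direction and the side of the threshold unchanged, or the count within 1.5 times. For the comparisons of strains only the direction could change, since 3 against 3 samples allow no p under 0.1. The number 135 therefore says little about those comparisons. The median site width was 748 bp with windows of 250 bp around summits. The higher percentile than the chromosome III center became −0.0548 with summit windows (adjusted exact p = 0.938), 0.588 with no limit on width (0.141) and 2.90 with sites of at least 2000 bp (0.0938), and it was 0.869 at q of 0.001, 3.09 at q of 1e-05 and 3.47 with the borders of III moved outward by 0.5 Mb. The lower percentile than the chromosome V center became −0.196 with no limit (adjusted exact p = 0.281) and −0.277 with at least 2000 bp (0.219), and it was −0.856 at q of 1e-05 and −1.56 with summit windows. The higher percentile than the arms became 12.8 and 2.77 under these limits (both 0.0938 adjusted, 0.0312 and 0.0625 unadjusted). The cause was not tested.

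The excess of the strain difference over that of chromosome III turned to −0.224 at q of 0.001, −0.509 at q of 1e-05, −0.172 with equal numbers of top peaks, −0.309 with summit windows, −0.0670 with no limit on width, −0.0651 with borders at 4.9 and 12 Mb and −0.410 with the borders of III moved outward. The strain difference in percentile was 1.94 to 3.97 points under the alternatives with all samples. Many of these changed the set of sites. The 1.94 was over 233 sites with summit windows and the 3.97 over 209 sites at q of 1e-05.

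Leaving out each replicate in turn gave 226 to 271 sites, differences of 1.62 to 2.47 from III, −2.92 to −1.66 from V and 9.0 to 11.1 from the arms, where 5 pairs allow no p under 0.0625. The strain difference in percentile was then 2.00 to 3.02 points, that in bases 0.0979 to 0.124 Mb, its excess over III −2.54 to 0.570 and over V −0.286 to 0.929, and the contrast by distance to the nearest site 4.33 to 8.21.

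Replicate numbers are shared between strains, but the deviations of samples with the same number correlated at −0.00439, 0.0960 and −0.136, so the numbers were not taken as pairing. With the replicate block the strain difference was 2.70 points, with an exact p of 0.25, the smallest that 3 pairs allow, and 0.106 Mb. With the block, the difference in peaks per site was −0.0670 (exact p = 0.25), the excess over III 0.153 (p = 0.75) and over V 0.584 (p = 0.25), and the contrast by distance 7.16.

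The smallest p of 3 against 3 samples, 0.1, is above 0.05. Read totals are unknown and no counting interval is given.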
